A study of Homo sapiens with 6 samples.

Results

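The 9 receptors described here are cell surface receptor tyrosine kinases through which fibroblasts read growth factors, matrix and neighbouring cells. They are PDGFRA, PDGFRB, FGFR1, MET, AXL, EPHA2, EPHA4, DDR2 and ROR1. They were chosen by gene name, from a list of 10 receptors, as every probe set annotated to a listed gene. A probe set is the group of short probes on an array that together report 1 transcript. The annotation gave 21 probe sets for 9 of the 10 genes, out of 22215 probe sets and 11963 named genes tested, and EPHB2 was not analysed here. RASv12 samples were senescent WI-38 cells, as labelled, with RASv12 overexpression, and control samples were growing wild type WI-38 cells, with 3 samples in each group. WI-38 cells are normal fibroblasts grown from human fetal lung, and RASv12 is an always active mutant of the small GTPase RAS that drives normal cells into lasting arrest. Both groups were grown in 3% oxygen, and the protocol that all samples share names retroviral gene transfer. The labels give neither the RAS gene used nor the time after infection, nor whether control cells carried an empty vector, so infection and RASv12 cannot be told apart. Dye labels also differ between the groups (Cy3 for RASv12 and Cy5 for control) and cannot be told apart from them. Nothing in the labels separates cultures within a group, so each p-value covers the spread among these arrays alone, and that spread may be technical.

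A receptor tyrosine kinase binds its ligand outside the cell, pairs with a second receptor and phosphorylates tyrosines on its own tail. Adaptors such as GRB2 and SHC1 dock there and bring in the activator SOS1, which loads RAS with GTP. The introduced RASv12 thus acts below these receptors on the same route to ERK. In fibroblasts the PDGF and FGF receptors carry growth signals, DDR2 senses fibrillar collagen, AXL binds GAS6, and the Eph receptors read ephrins on adjacent cells. ROR1 is a receptor for WNT5A whose own kinase activity is weak or absent.

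Each gene was read at its brightest probe set by mean intensity across the 6 arrays. There, 6 of the 9 receptors fell in RASv12 cells, 1 rose and 2 were not called. Those that fell were PDGFRA, PDGFRB, FGFR1, AXL, DDR2 and ROR1, and the one that rose was EPHA2, while MET and EPHA4 stayed above the threshold. Their log2 changes ran from -1.82 for AXL to 0.76 for EPHA2, with a median of -1.01, against a median of 0.020 over all named genes. That median is the value of ROR1, a dim gene whose size depends on the pseudocount, and its neighbours in order are FGFR1 at -1.07 and PDGFRA at -0.95. A gene was called at an adjusted p under 0.05. By that rule 27.7% of all named genes were called, 13.0% up and 14.8% down, against 77.8% of the 9 receptors. The receptors were chosen with earlier results of these data known, so a higher share among them is not a test. With the dimmest 50% of probe sets left out, the share was 47.2% of all genes (22.5% up and 24.7% down) and 6 of the 7 receptors that stayed. For 7 of the 9 receptors, 1 above and 6 below, all 3 RASv12 arrays lay on 1 side of all 3 control arrays, as they did for 41.6% of all named genes (19.7% above and 21.9% below). Of the 21 receptor probe sets, 10 fell, 1 rose and 10 were not called, where 24.3% of all probe sets were called, 11.3% up and 13.0% down. Separation without overlap was seen in 13 of the 21, 2 above and 11 below, and in 38.1% of all probe sets (18.0% above and 20.1% below). Cells were measured in bulk, so fewer cells with a receptor and less of its RNA per cell cannot be told apart.

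**Figure D1:**
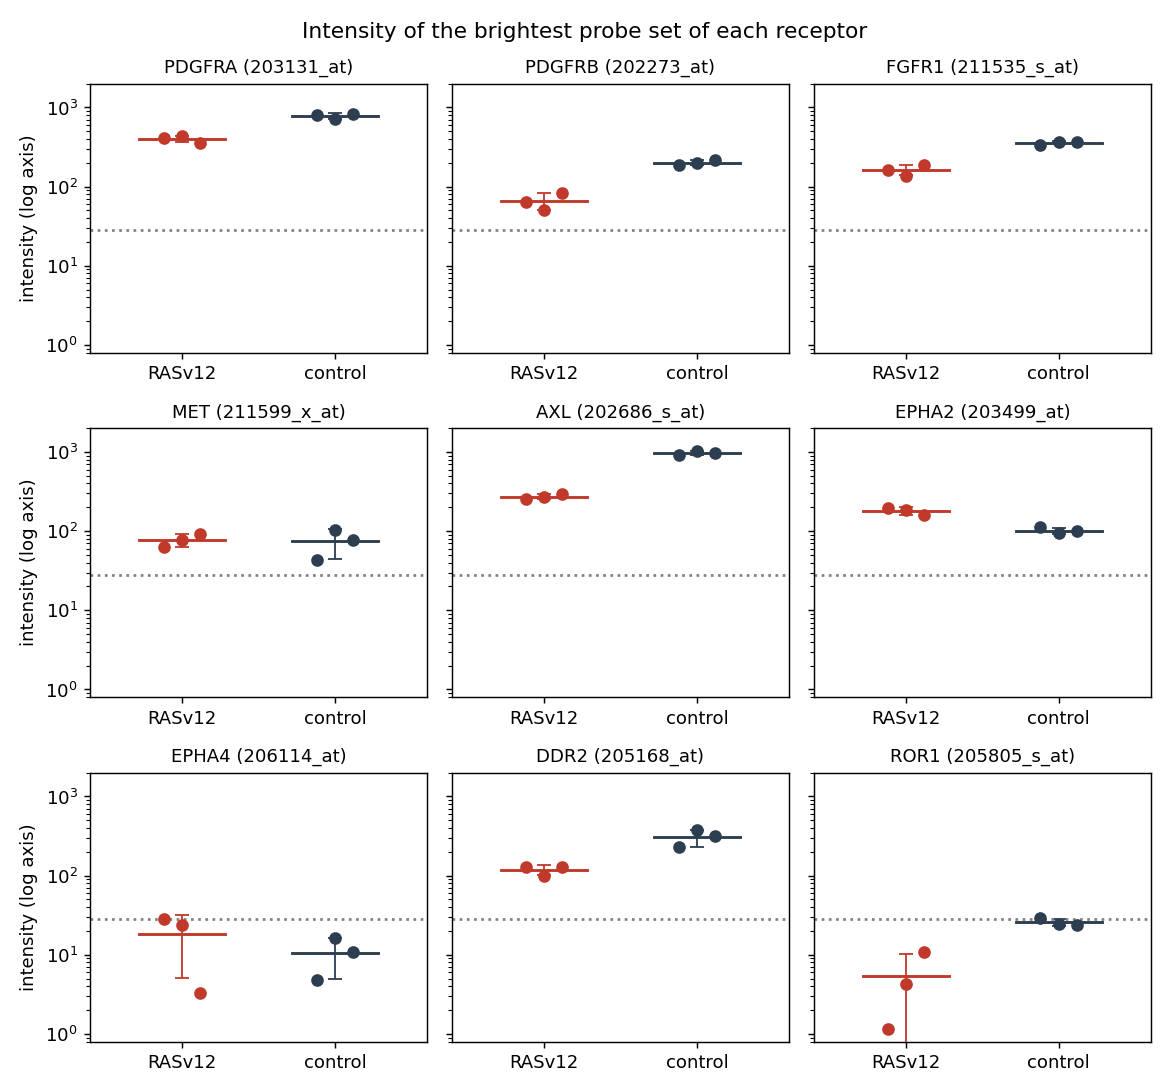
Deposited intensity of each receptor's brightest probe set (log axis) on each array, with RASv12 samples left and control samples right. Lines are means and bars SD over 3 samples. The dotted line at 27.98 is the highest signal of the 27 bacterial control probe sets, which do not include the hybridization controls. The RASv12 points lie below every control point in PDGFRA, PDGFRB, FGFR1, AXL, DDR2 and ROR1 and above them in EPHA2. The lower bar of ROR1 in RASv12 cells runs past the bottom of the axis.

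Arrays and labels were checked first. The lowest correlation of a pair of arrays of the same group, over all probe sets, was 0.975, and the highest of a pair across groups was 0.928. HRAS, a RAS gene often used in such models, had 816, 753 and 990 in RASv12 samples, against 222, 189 and 234 in control samples, so its 2 groups did not overlap. Of 13 fibroblast markers 9 fell and the other 4 were not called, and VIM, which encodes vimentin, had 4672 ± 400 in RASv12 cells and 5029 ± 480 in control cells (SD, n = 3 each). Many markers of epithelial, endothelial and blood cells were dim. On all 6 arrays, 5 of 10 epithelial markers, 5 of 8 endothelial markers and 5 of 8 leukocyte markers lay at or under 27.98, among them EPCAM, CDH1, CDH5, VWF, PTPRC and CD14. Others of these lists were called. Among epithelial markers KRT19 fell (17.6 in RASv12 cells and 52.7 in control cells) and SFTPB (57.7 in RASv12 cells and 33.6 in control cells) and CLDN7 rose. TIE1 rose and TEK fell among endothelial markers, and MS4A1 and CSF1R rose among leukocyte markers, where CLDN7, MS4A1 and CSF1R had both means under 27.98. The bacterial control probe sets that set this level report transcripts that human cells do not have. The summed intensity of the leukocyte markers was 70.1 to 151 in RASv12 samples and 43.2 to 101 in control samples.

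The promoters of the receptor that rose and of 3 that fell are shown, to set a rise beside falls in the same cells. FGFR1, DDR2 and ROR1 also fell, and their promoters are not shown. Each is the RefSeq window of 300 bases on GRCh38.p14, from 250 before to 50 after the start of the gene, written 5′ to 3′ along its strand. Capitals mark matches on either strand to the AP-1 motif TGANTCA, the cAMP response element TGACGTCA and the CCAAT box CCAAT. The first 2 are patterns of sites for factors that RAS and ERK signalling can activate. N stands for any base, so a match to the AP-1 pattern need not be such a site. PDGFRA and AXL have 2 windows each in RefSeq. The most upstream is shown.
EPHA2 (chr1:16156020-16156319, minus strand, rose): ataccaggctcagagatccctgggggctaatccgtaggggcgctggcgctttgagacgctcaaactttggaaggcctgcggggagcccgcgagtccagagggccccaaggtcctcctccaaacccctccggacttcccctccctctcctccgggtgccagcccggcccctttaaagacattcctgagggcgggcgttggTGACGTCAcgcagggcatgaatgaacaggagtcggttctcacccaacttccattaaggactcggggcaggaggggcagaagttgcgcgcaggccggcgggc
PDGFRB (chr5:150155796-150156095, minus strand, fell): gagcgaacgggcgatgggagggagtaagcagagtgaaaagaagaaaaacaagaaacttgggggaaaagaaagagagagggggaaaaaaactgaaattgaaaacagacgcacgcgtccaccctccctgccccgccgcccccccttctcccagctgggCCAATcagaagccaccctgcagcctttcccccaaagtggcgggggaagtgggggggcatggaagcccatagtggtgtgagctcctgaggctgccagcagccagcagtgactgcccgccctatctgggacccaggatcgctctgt
PDGFRA (chr4:54229043-54229342, plus strand, fell): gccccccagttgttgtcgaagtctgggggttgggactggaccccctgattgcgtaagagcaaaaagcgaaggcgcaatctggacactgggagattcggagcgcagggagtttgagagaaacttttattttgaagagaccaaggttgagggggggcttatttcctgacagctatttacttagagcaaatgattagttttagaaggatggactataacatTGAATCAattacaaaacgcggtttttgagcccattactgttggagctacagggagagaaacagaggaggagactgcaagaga
AXL (chr19:41218973-41219272, plus strand, fell): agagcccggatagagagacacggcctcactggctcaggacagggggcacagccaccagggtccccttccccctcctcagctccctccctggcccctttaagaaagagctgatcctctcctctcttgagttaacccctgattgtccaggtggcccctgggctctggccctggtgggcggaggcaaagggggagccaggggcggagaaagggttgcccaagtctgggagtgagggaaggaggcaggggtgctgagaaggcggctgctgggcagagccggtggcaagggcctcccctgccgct
The EPHA2 window held 1 cAMP response element, at bases 200 to 207, a match that 1.8% of 35093 RefSeq promoter windows of this length also hold. The AP-1 letters stood in the PDGFRA window at bases 219 to 225, with A at the open base N. Matches with any base there are found in 7.7% of windows. The second PDGFRA window, not shown, held no AP-1 letters and a CCAAT box at bases 177 to 181, so the match depends on which start is used. A CCAAT box stood in the PDGFRB window at bases 157 to 161, as in 34.6% of windows. Neither AXL window held any of these letters. Of 13 windows searched for 8 of the receptors, 2 held AP-1 letters, 1 the cAMP response element and 5 a CCAAT box, with no overlap between motifs in those printed. DDR2, which also fell, was the other gene with AP-1 letters. These matches describe the sequence and show no binding.

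The PDGF receptors, which bind platelet-derived growth factors and drive fibroblast growth and migration, both fell. PDGFRA (probe set 203131_at) had intensities of 415, 431 and 360.4 in RASv12 replicates 1 to 3, against 813, 706 and 826 in control replicates 1 to 3. All RASv12 samples lay below all control samples, and the log2 change was -0.95 ± 0.11 (SE) with adjusted p = 0.0011. All log2 changes here are on the log2(intensity + 16) scale, which compresses the change of dim genes, and all errors beside them are SE. PDGFRB (202273_at), with its single probe set, had 64.4, 51.2 and 83.1 in RASv12 cells, against 189, 197 and 219 in control cells. It fell by 1.38 on the log2 scale (SE 0.15, adjusted p = 8.9e-04), a 2.60-fold lower level, and its groups did not overlap.

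The other PDGFRA probe sets did not follow the brightest one. Probe set 215305_at had 94.3, 83.3 and 62.7 in RASv12 samples, against 55.9, 61.6 and 58.4 in control samples, a log2 difference of 0.41 ± 0.15 with adjusted p = 0.11. Probe set 211533_at was dim on every array, with no value above 1.99. When the 3 probe sets were averaged, PDGFRA stood at -0.18 with adjusted p = 0.19 and was not called. Scaling the arrays to their hybridization controls, non-human transcripts added in equal amounts, gave -0.60 for the brightest PDGFRA probe set and kept its call. The median of all genes moved to 0.20. Under that scaling 215305_at was called up, at 0.62 (adjusted p = 0.011), so 2 PDGFRA probe sets were called in opposite directions. Probe set 215305_at was called in 2 of 16 alternatives. Some pericyte and smooth muscle markers, among which PDGFRB is often counted, also fell. Of 7 measured, 3 fell and 4 were not called, and their summed intensity was 506 to 649 in RASv12 samples and 1250.3 to 1419.8 in control samples. Those that fell were ACTG2, a smooth muscle actin, with means of 263 in RASv12 cells and 823 in control cells, MCAM with 142 in RASv12 cells and 267 in control cells, and NOTCH3 with 45.7 in RASv12 cells and 81.0 in control cells. CSPG4 was not called, and DES, MYH11 and RGS5 lay at or under 27.98 on all arrays. Of 13 fibroblast markers 9 fell and 4 were not called. Whether pericytes or smooth muscle cells were present, and any part of theirs in the PDGFRB result, was not tested.

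FGFR1, the main fibroblast growth factor receptor of mesenchymal cells, fell on its brightest probe set. There (211535_s_at) it had 163, 138 and 186 in RASv12 samples and 340.1, 367 and 363 in control samples, with no overlap. The log2 change was -1.07 ± 0.12 with adjusted p = 0.0010. Its 5 other probe sets were dimmer, and only 222164_at among them was called, at -0.83 ± 0.21 with adjusted p = 0.030 and at least 1.59-fold lower in RASv12 cells. That call ended without control replicate 1 (adjusted p = 0.091), control replicate 3 (0.10), RASv12 replicate 2 (0.099) or RASv12 replicate 3 (0.084), and with 1 added to each value (0.058), and it was kept in 10 of 15 alternatives. Probe set 210973_s_at spread widely, with 146, 81.6 and 103 in RASv12 samples and 126, 272 and 281 in control samples, and did not pass (adjusted p = 0.096). The low control value is replicate 1, and without it the log2 change was -1.25 and passed (adjusted p = 0.015). Probe set 207937_x_at pointed the other way at 0.33 ± 0.20 without passing. In this array's naming the ending _x_at marks probe sets with probes that can also match other transcripts. The mean of the 6 probe sets gave -0.54 for FGFR1 and was called.

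MET, the receptor for hepatocyte growth factor, gave different answers by probe set. The brightest, 211599_x_at, had 63.7, 76.95 and 91.9 in RASv12 samples, against 43.3, 105 and 77.1 in control samples. These overlap, and the log2 difference of 0.16 had a 95% interval from -0.45 to 0.77 (adjusted p = 0.73). It turned to -0.12 without control replicate 1 and to -0.17 as the mean of all 4 probe sets, neither of which passed. Probe set 203510_at, by contrast, had 29.2, 45.2 and 39.7 in RASv12 samples and 105, 89.9 and 74.1 in control samples. It did not overlap and fell by 0.91 on the log2 scale (SE 0.15, adjusted p = 0.0055), a call kept in all 16 alternative settings. The other 2, 213807_x_at at 0.27 and 213816_s_at at -0.18, did not pass, and the last was at or under 27.98 on every array. Thus 1 of the 4 MET probe sets was called and 3 were not. The brightest and 213807_x_at carry the ending _x_at, so their probes can also match other transcripts, while 203510_at does not carry it.

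AXL, which binds GAS6 and PROS1 and supports survival and the clearance of dead cells, had the lowest log2 change of the 9. Its brightest probe set, 202686_s_at, had 256, 268 and 292 in RASv12 samples and 921, 1022 and 976 in control samples. Every RASv12 sample lay below every control sample, and AXL fell by 1.82 on the log2 scale (SE 0.10, adjusted p = 5.0e-05), to a level 3.52-fold lower. The second, 202685_s_at, had 50.5, 61.9 and 57.9 in RASv12 samples, against 122, 112 and 147 in control samples, and changed by -0.91 ± 0.12 (adjusted p = 0.0026). Both probe sets fell, and their 95% intervals, -2.05 to -1.58 and -1.21 to -0.62, do not overlap. They report the same gene on the same arrays at unlike brightness, and the difference in size between them was not tested.

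**Figure D2:**
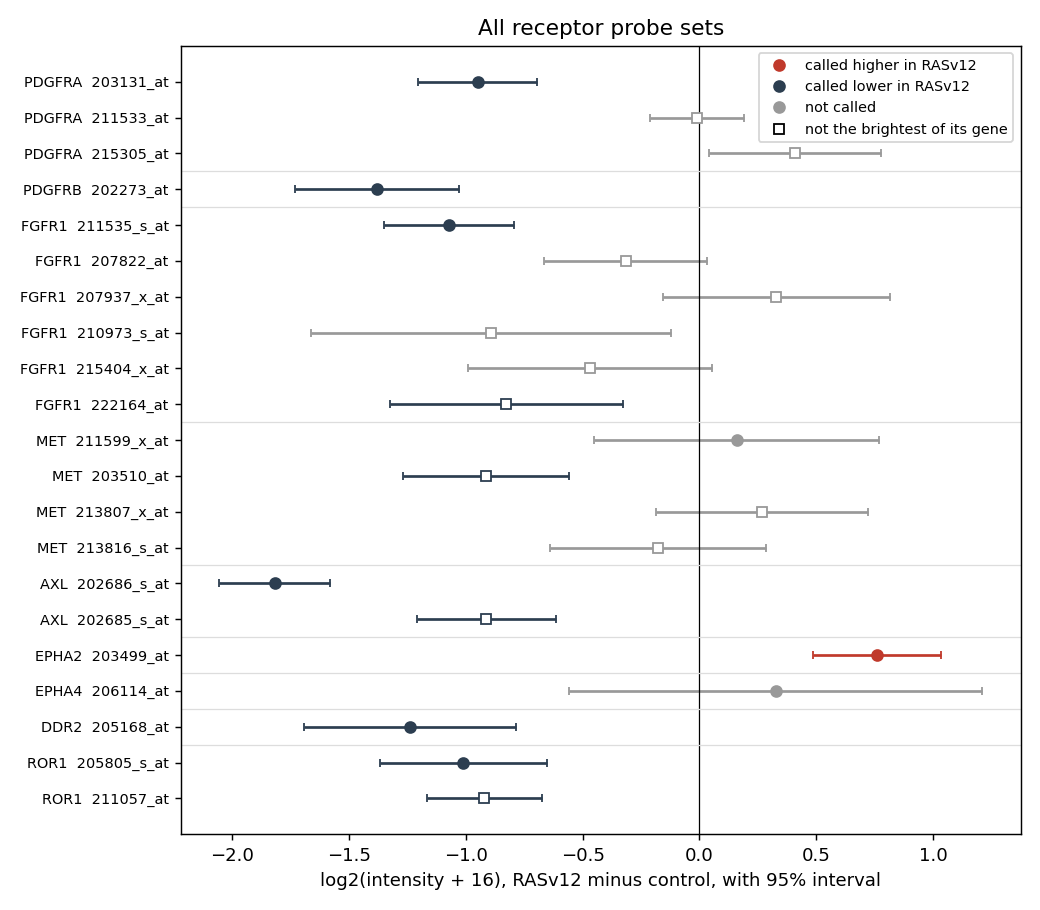
Log2 change (RASv12 minus control) of all 21 receptor probe sets with 95% intervals from the fit over all probe sets, grouped by gene. Filled circles are the brightest probe set of a gene and open squares the others. Both AXL and both ROR1 probe sets lie below 0, while those of PDGFRA, FGFR1 and MET lie on both sides of it.

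Among Eph receptors, which signal on contact with ephrin-bearing cells, EPHA2 rose. EPHA2 (203499_at), a receptor for A-type ephrins, had 198, 184 and 160.4 in RASv12 samples and 112, 94.0 and 99.5 in control samples. The groups did not overlap, and the log2 change was 0.76 ± 0.11 with adjusted p = 0.0041. Over 17 alternative settings it stayed called, between 0.57 and 1.04. EPHA4 (206114_at), which binds ephrins of both types, had 28.5, 23.97 and 3.29 in RASv12 samples and 4.83, 16.3 and 10.8 in control samples. Only 1 of these 6 values lay above 27.98, and EPHA4 was not called (log2 difference 0.33, 95% interval -0.56 to 1.21, adjusted p = 0.60). The RASv12 samples spread over both sides of the control samples, with replicate 3 below all of them.

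DDR2, the collagen receptor of mesenchymal cells, fell. It had 129, 98.8 and 128 in RASv12 samples, against 227, 373 and 319.8 in control samples, on its single probe set (205168_at). Control replicate 1 was the lowest control and still lay above all RASv12 samples. The log2 change of DDR2 was -1.24 ± 0.19 with adjusted p = 0.0043, and it ran from -1.43 to -1.10 when each sample was left out in turn.

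ROR1 was called down near the detection limit of the arrays. Probe set 205805_s_at had 1.17, 4.24 and 10.9 in RASv12 samples and 29.2, 24.4 and 24.1 in control samples, and 211057_at had 4.20, 6.78 and 4.79 in RASv12 samples, against 22.3, 23.5 and 27.3 in control samples. The groups did not overlap on either (adjusted p = 0.0037 and 0.0011). Both group means lay at or under 27.98, so no fold is given. The log2 change, -1.01 as reported, was -2.41 with 1 added to each value and -0.38 with 64 added, and its size is not read.

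Ligands of the 9 receptors were read from lists of the same pathway, to which the samples' other probe sets were matched. Those whose brightest probe set had a mean above 27.98 in either group are given singly.

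Of 7 FGF ligands 1 was called at its brightest probe set, and it rose. The counts were 1 up and 1 down without control replicate 3, and 2 up and 1 down with the mean of each gene's probe sets. FGF2, a broadly acting ligand of FGFR1, had 997, 1023 and 888 in RASv12 samples and 65.6, 95.5 and 96.6 in control samples. It rose by 3.31 on the log2 scale (SE 0.15, adjusted p = 2.5e-05) while FGFR1 fell, and its second probe set rose by 2.64 (adjusted p = 2.9e-04). FGF5 at -0.51 did not pass (adjusted p = 0.095), nor did FGF7, a ligand for epithelial FGF receptors, at -0.43 (adjusted p = 0.12), though neither overlapped between groups. FGF1 had 31.1 ± 6.98 in RASv12 cells and 28.5 ± 4.29 in control cells. Dimmer probe sets of 3 uncalled genes did pass, at -0.66 for FGF5 (adjusted p = 0.023), and at -0.89 for FGF1 (0.0017) and 0.62 for FGF18 (0.028) with both means under 27.98.

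Among 4 PDGF ligands only PDGFD, a ligand of PDGFRB, was called at its brightest probe set. It had 12.8, 26.9 and 28.9 in RASv12 samples, against 69.5, 55.4 and 73.7 in control samples, at least 2.33-fold lower in deposited intensity. The fitted log2 change was -1.06 ± 0.16 (adjusted p = 0.0039). PDGFC, a ligand of PDGFRA, had 564 ± 47.4 in RASv12 cells and 582 ± 73.2 in control cells and was not called (adjusted p = 0.85). PDGFA and PDGFB had means at or under 27.98 in both groups at their brightest probe sets. Of the 4 PDGFB probe sets, 1 dimmer than the brightest was called.

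Both AXL ligands fell with their receptor. GAS6 had 263, 216 and 259 in RASv12 samples, against 2180.3, 2274 and 2429 in control samples. That fall of 3.17 on the log2 scale (SE 0.10, adjusted p = 9.5e-06) was larger in the other GAS6 probe set, at -3.76 (adjusted p = 1.1e-05). PROS1, the anticoagulant protein S, had 37.4, 39.2 and 36.9 in RASv12 samples and 64.7, 60.1 and 63.8 in control samples. Its log2 change of -0.50 (adjusted p = 0.012) was no longer called with scaling to the hybridization controls (adjusted p = 0.058) or with the replicate number as a block (0.0501).

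Collagens that DDR2 binds fell in 5 of 7 cases, with 1 that rose and 1 that was not called. COL3A1 changed by -4.49 ± 0.16, COL5A2 by -2.35 ± 0.16, COL1A1 by -1.83 ± 0.094, COL5A1 by -1.62 ± 0.11 and COL1A2 by -1.45 ± 0.14, with adjusted p from 1.2e-05 for COL3A1 to 5.5e-04 for COL1A2. In none of these 5 did the groups overlap. COL10A1, the collagen of hypertrophic cartilage, had 119, 116 and 110.2 in RASv12 samples, against 17.7, 11.7 and 4.41 in control samples, at least 4.11-fold higher (adjusted p = 2.0e-04).

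Ligands of MET, the Eph receptors and ROR1 had few calls, and those depended on the setting. HGF, the ligand of MET, had 144, 155 and 114 in RASv12 samples and 80.2, 102 and 121 in control samples, and was not called at 0.43 (adjusted p = 0.13). It was called at 0.70 with scaling to the hybridization controls (adjusted p = 0.016), and its 5 probe sets averaged -0.034. None of the 6 genes of the HGF list passed, though 1 was called down without control replicate 3 or RASv12 replicate 3, and MST1, a related ligand of another receptor, had a log2 difference of -0.18 (adjusted p = 0.63). Ephrins had 2 of 8 down and none up as reported, 0 called with the replicate number as a block, and 1 up and 0 down when arrays were scaled to the hybridization controls. EFNA5, at -0.46 (adjusted p = 0.040), lost its call without control replicates 1 or 3 or RASv12 replicates 1 or 2, and its other probe set was not called. EFNA4, at -0.53 (adjusted p = 0.024) and at least 1.07-fold lower, lost it without control replicates 1 or 3 or RASv12 replicates 1 or 3. EFNB2, the B-type ephrin that EPHA4 also binds, stood at 0.13 (adjusted p = 0.58). It reached 0.40 and was called (adjusted p = 0.048) when arrays were scaled to the hybridization controls. WNT5A, which ROR1 binds, had 315, 425 and 406 in RASv12 samples and 345, 238 and 268 in control samples. These overlap, and its 0.40 did not pass (adjusted p = 0.17) except with scaling to the hybridization controls, where it was 0.74. WNT5B at -0.48 missed the threshold (adjusted p = 0.054).

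**Figure D3:**
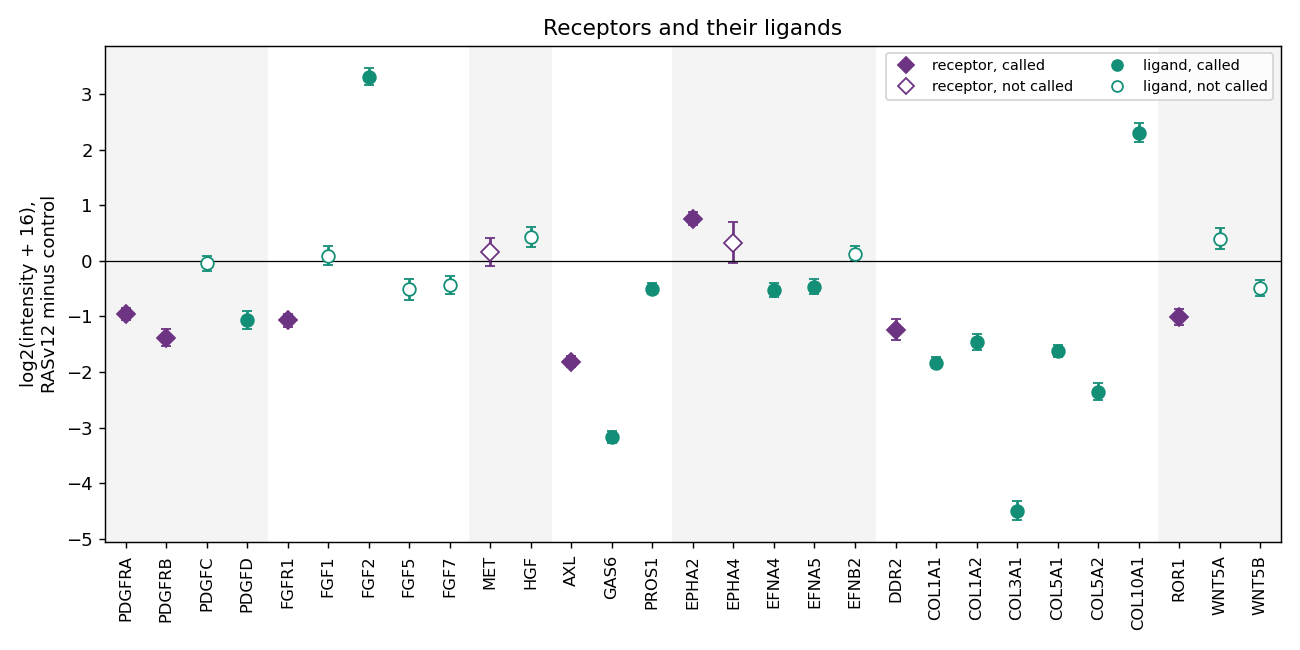
Log2 change (RASv12 minus control) of the receptors (diamonds) and of the ligands measured above the bacterial controls (circles), with SE as bars and filled marks for called genes. AXL and GAS6 lie below 0 together, as do DDR2 and 5 of its 6 collagens, while FGFR1 at -1.07 and FGF2 at 3.31 lie on opposite sides.

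Partners of the receptors inside and around the membrane were read in the same way. Over all 13 partner lists, ligands included, 18 of 132 measured genes were called up, 29 were called down and 85 missed the threshold, and their median change was -0.027. That is 13.6% up and 22.0% down, beside 13.0% and 14.8% of all named genes. Under the scaling to hybridization controls the calls were 27 up and 21 down.

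Receptor relatives were mostly dim. Of 18 relatives in the same families, 9 lay at or under 27.98 on all arrays, and 1 was called up and 3 down. EPHB4, an ephrin-B receptor, had 77.3 ± 9.05 in RASv12 cells and 149 ± 24.5 in control cells, a change of -0.77 ± 0.14 (adjusted p = 0.0089). The other EPHB4 probe set was not called. KIT, the stem cell factor receptor, was called down and CSF1R, the receptor of macrophage growth factor, up, both with group means under 27.98. Of 22 receptor tyrosine kinases from other families 2 were called up and 3 down. ROS1, 1 of those up, had both means under 27.98. PTK7, a Wnt-linked pseudokinase, changed by -1.22 ± 0.13 (adjusted p = 8.0e-04). TIE1 was at least 1.70-fold higher and TEK, its endothelial partner receptor, at least 2.58-fold lower in RASv12 cells. The fitted log2 change of TEK was -1.14 ± 0.17, and its other probe set was not called.

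Among adaptors and proximal effectors 4 of 20 rose and 2 fell, and under the scaling to hybridization controls the calls were 6 up and 1 down. GRB2, the adaptor that brings the RAS activator SOS1 to receptors, had 270.3 ± 27.8 in RASv12 cells and 98.3 ± 11.4 in control cells. It rose by 1.34 on the log2 scale (SE 0.11, adjusted p = 3.2e-04), and the SRC family kinase YES1 rose by 1.08 (SE 0.17, adjusted p = 0.0049). Of the 3 YES1 probe sets, 1 other than the brightest was called. GAB2, a docking protein, was at least 1.96-fold lower (adjusted p = 0.0080).

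The list of receptor attenuation genes, which also holds the adaptor SH2B1, had 5 of 14 up and 2 down, and 7 up and 2 down under that scaling. With 1 added to each value, or without control replicate 3, the list had 2 up and 2 down. GRB14, an adaptor that restrains receptor kinases, was at least 1.16-fold higher (adjusted p = 6.2e-04). PTPRK, a receptor phosphatase, changed by -0.73 ± 0.086 (adjusted p = 0.0014), and SOCS1, a cytokine signalling inhibitor, was at least 1.66-fold lower (adjusted p = 0.0056). None of the other SOCS1 probe sets was called.

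Proteases that shed receptors or cut their stubs had 3 of 9 up and 3 down. ADAM8, 1 of those up, lay at or under 27.98 on all arrays. ADAM9 changed by -1.09 ± 0.12 (adjusted p = 0.0012), ADAM12 by 1.34 ± 0.11 (adjusted p = 2.7e-04) and PSENEN, a gamma-secretase subunit, by 1.09 ± 0.16 (adjusted p = 0.0036). Of the 4 ADAM12 probe sets, 1 other than the brightest was called. Under the scaling to hybridization controls 3 were up and 2 down.

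Heparan sulfate co-receptors, whose sugar chains help FGFs bind FGFR1, were read in 1 list with the neuropilins NRP1 and NRP2. Of these 9 genes 1 was up and 3 were down, and with that scaling 2 were up and 3 down. The gene called up was NRP2, at 0.89 ± 0.17 (adjusted p = 0.0095), so no syndecan or glypican was called up as reported. The glypican GPC1 had 72.4 ± 14.2 in RASv12 cells and 426 ± 12.4 in control cells. It fell by 2.31 on the log2 scale (SE 0.12, adjusted p = 3.7e-05), while the other GPC1 probe set was not called. The syndecans SDC3 and SDC4 changed by -1.53 ± 0.18 and -1.32 ± 0.16 (adjusted p = 0.0015 and 0.0014).

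In the WNT5A and ROR pathway list 3 of 6 fell and none rose, and 1 fell and 1 rose with that scaling. VANGL1, a planar polarity protein, fell at least 2.01-fold in RASv12 cells (fitted log2 change -0.77 ± 0.12, adjusted p = 0.0047). The Dishevelled genes DVL2 and DVL3 changed by -0.52 and -0.73 and lost their calls with that scaling, and DVL3 also lost it without control replicates 2 or 3 or RASv12 replicate 2. The other DVL3 probe set was not called. DVL1 had a log2 difference of -0.048 (adjusted p = 0.86).

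**Figure D4:**
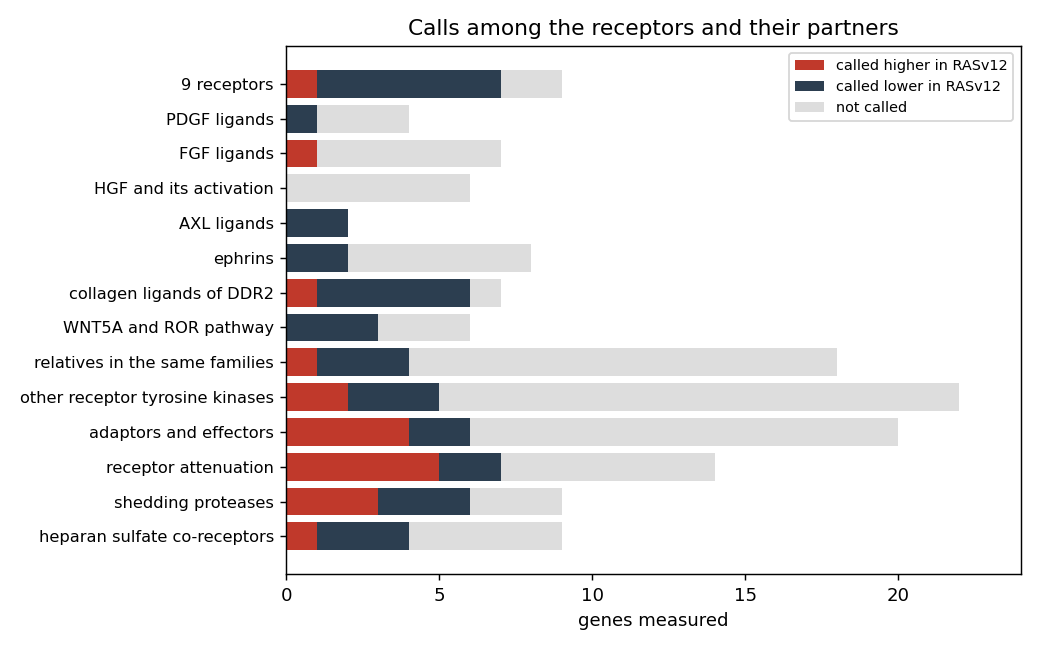
Number of genes called higher, called lower or not called in RASv12 cells among the 9 receptors and the 13 partner lists. Falls make up 6 of the 9 receptors. Of 14 genes in the attenuation list 5 rose and 2 fell (2 and 2 with 1 added to each value). Of 20 adaptors and effectors 4 rose and 2 fell. Of all named genes 13.0% were called up and 14.8% down.

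The receptor calls were recomputed under other normalizations, pseudocounts, filters and sample subsets. PDGFRB, FGFR1, AXL, EPHA2 and DDR2 kept direction and call in all 17, ROR1 in the 16 where it was measured, and PDGFRA in 16 of 17. MET and EPHA4 were called in none at their brightest probe set. For MET that is an _x_at probe set, and its probe set 203510_at was called down in all 16 alternatives.

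**Figure D5:**
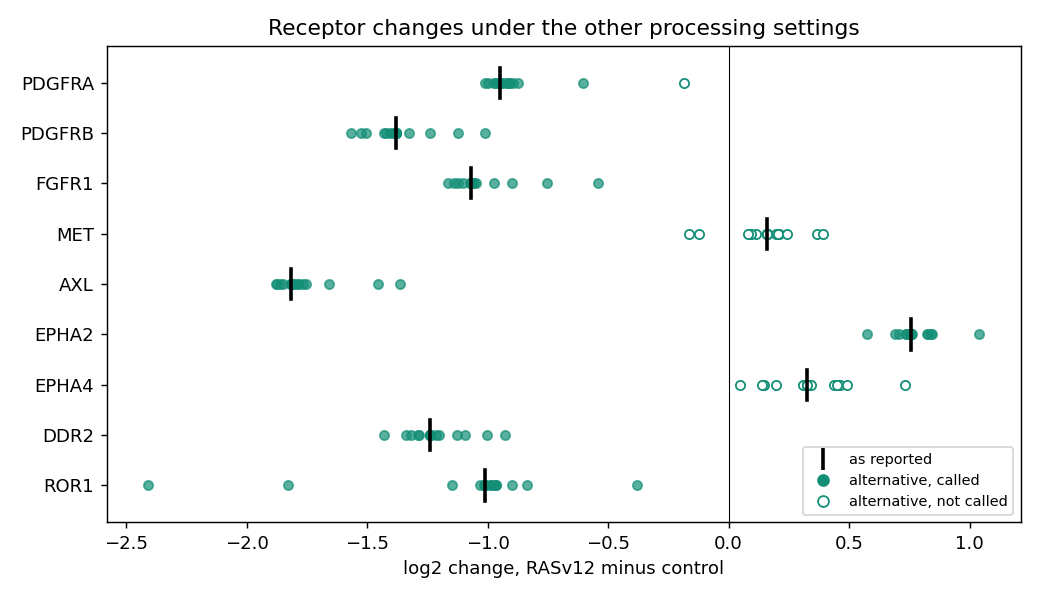
Log2 change of each receptor (RASv12 minus control) as reported (black line) and under each alternative setting (points, filled where called). Points of AXL run from -1.88 to -1.36 and those of EPHA2 from 0.57 to 1.04, while MET lies on both sides of 0.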

How the data were processed

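Signal was read on 6 arrays of the A design in the Affymetrix U133 human series, by their probe set names. The authors deposited 1 table of linear intensity per probe set, and MAS5 is named per the submitters' processing notes, with its version and scaling not given in the sources used here. Per the labels' protocols, RNA had 2 rounds of amplification. No gene was named for 1043 probe sets annotated to several symbols and 2107 annotated to none, and 68 control probe sets were left out. Symbols were updated through RefSeq (GRCh38.p14).

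Intensities were transformed as log2(value + 16), quantile normalized, since array medians differed, and tested over 22215 probe sets with limma 3.58.1 under R 4.3.3 (lmFit, eBayes). P-values were adjusted over all of them by Benjamini and Hochberg's method, with a threshold of 0.05. Procedures were tested on simulated data. A gene is read at its brightest probe set. The bound "at least" sets the brighter mean against dim values raised to 27.98, the highest of 27 bacterial control probe sets. It uses deposited intensities, averaged as log2, and bounds only what dim values hide. It has no interval, and the fold from the fit can be smaller, since adding 16 compresses the change of dim genes. The number of arrays limits precision. Partner lists have no list test. Named partners are ligands above 27.98 and, from other lists, the 3 called genes with the largest changes. NRP1, NRP2, ROS1, ADAM8 and SH2B1 are named besides. Members and lists were chosen with earlier results of these data known.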

Additional observations from a re-analysis of the deposited data

How the results depend on the processing

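Across 17 alternative settings the counts of called probe sets and genes stayed within 1.5 times the reported ones: 3706 to 6050 of all probe sets (5399 reported), 9 to 12 of the 21 receptor probe sets (11) and 6 or 7 receptor genes (7). Leaving out 1 sample at a time gave 3706 to 4970 probe sets and 10 or 11 receptor probe sets. Scaling to the hybridization controls split the calls into 4375 up and 1675 down, where 2506 up and 2893 down are reported. Among the 9 receptors and their 21 probe sets, direction turned for 3 values, none of them called: PDGFRA probe set 211533_at, reported at -0.011, was 0.025 with median centring, 0.026 with scaling to the hybridization controls, and -0.031 to 0.0027 when a sample was left out (0.00061 without control replicate 3 and 0.0027 without RASv12 replicate 2). MET, reported at 0.16, ran from -0.12 (without control replicate 1) to 0.39 with a sample left out and was -0.17 as the mean of its probe sets, and MET probe set 213816_s_at, reported at -0.18, ran from -0.34 to 0.027 (without RASv12 replicate 3). Among ligands, HGF turned from 0.43 to -0.034 as the mean of its probe sets, and the ephrin calls, 2 down as reported, became 1 up with scaling to the hybridization controls. The cause was not tested. Same-numbered samples did not deviate together (correlations -0.23, -0.028 and -0.070 for numbers 1 to 3), and 0 of the 6 samples correlated best with its own number. With the replicate number as a replicate block, 3852 probe sets, 11 receptor probe sets and 7 receptor genes were called. Signal limits EPHA4, ROR1 and the dim partners, whose values lie near the bacterial controls.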
